A study of Mus musculus with 6 samples.

Results

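Oxidative phosphorylation is carried out by 5 protein complexes of the inner mitochondrial membrane, and the transcripts of their nuclear-encoded subunits were followed in mouse leukaemia cells after panobinostat or vehicle. Members were the protein-coding genes whose symbols name a subunit of complex I (Ndufa, Ndufb, Ndufc, Ndufs and Ndufv), complex II (Sdha to Sdhd), complex III (Uqcr genes and Cyc1), complex IV (Cox4 to Cox8 genes) or complex V (Atp5 genes). Assembly factors and 5 pseudogenes whose symbols matched the same patterns (Atp5c1-ps, Ndufa11b, Ndufs5-ps, Ndufs6b and Uqcrh-ps1) were left out. This gave 87 genes of the 27179 in the count table, with 39 in complex I, 4 in complex II, 9 in complex III, 18 in complex IV and 17 in complex V. Enough reads for testing were present for 80 of the 87, which were 38, 4, 8, 13 and 17 genes of complexes I to V.

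The cells were a C57BL/6 leukaemia line named A/E9a;NRASG12D;Ifnar1-/-, and both groups carry all 3 alterations. A/E9a is a form of the AML1-ETO fusion oncogene, NRASG12D is an activated RAS protein, and Ifnar1-/- stands for loss of 1 chain of the receptor for type I interferons. The leukaemia cells express green fluorescent protein (GFP), and viable GFP+ cells, judged by propidium iodide, were sorted from the spleens of mice after 3 days of panobinostat, an inhibitor of histone deacetylases, or of vehicle, with 3 RNA sequencing libraries in each group. It is 1 line, and the labels do not tell whether each library is from a mouse of its own. The p-values therefore refer to variation among libraries, some of which could be technical. Libraries are named here by group and by the number in their column name, which is not tied to the replicate number in the labels.

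Library totals were 31989622 to 35962605 read counts. The Ifnar1 transcript was counted at 35.7 to 48.0 CPM in the 6 libraries, and the sources used here do not say which exons were deleted, so this checks nothing. CPM are read counts relative to library size after scaling by TMM factors. Runx1t1, Kit, Gata2 and Cd34, taken as markers of the leukaemia, summed to 1080 to 1584 CPM, most of it from Gata2 (649 to 1112 CPM). Cd34 was low, at 4.20, 0.43 and 0.35 CPM in vehicle libraries 1 to 3 and 6.09, 1.88 and 3.68 CPM in panobinostat libraries 1 to 3. Across all genes tested, the log2 CPM of vehicle library 1 correlated at 0.955 with each of the other vehicle libraries and at 0.968, 0.983 and 0.989 with panobinostat libraries 1, 2 and 3. Vehicle library 1 therefore stood nearer to the panobinostat libraries than to its own group, and the sums, spreads and called genes below are also given without it.

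Complex I takes electrons from NADH, and complex II takes them from succinate as part of the tricarboxylic acid cycle. Both pass them through coenzyme Q to complex III and then, on cytochrome c, to complex IV, which reduces oxygen. Complexes I, III and IV pump protons, and complex V, the ATP synthase, lets the protons return and makes ATP. All complexes except complex II hold subunits made from mitochondrial DNA beside those made from nuclear genes. All 13 mitochondrially encoded subunit genes (ND1 to ND6 with ND4L, CYTB, COX1 to COX3, ATP6 and ATP8) were listed at 0 in all 6 libraries, so that the description covers nuclear genes only.

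The promoters of these genes are known for sites of the nuclear respiratory factors, and the following stretches of 30 bases show the core of the NRF1 motif, in capitals, upstream of 1 subunit gene of complexes I, II, IV and V each. They are from the RefSeq promoter table for GRCm38.p6, on the strand of the gene.
Ndufa11 (complex I), chr17:56717691-56717720, + strand, core 60 bases before the annotated start: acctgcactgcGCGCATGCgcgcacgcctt
Sdhb (complex II), chr4:140961206-140961235, + strand, core 54 bases before the start and read on the other strand: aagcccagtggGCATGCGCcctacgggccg
Cox6a1 (complex IV), chr5:115349102-115349131, - strand, core 162 bases before the start: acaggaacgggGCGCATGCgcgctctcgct
Atp5k (complex V), chr5:108434431-108434460, - strand, core 50 bases before the start: ctttcactgcgGCGCATGCgcctttctggc
Ndufa11 is an accessory subunit of complex I, Sdhb the iron-sulphur subunit of complex II, Cox6a1 a nuclear subunit of complex IV and Atp5k a small subunit of complex V. In the stretches of Ndufa11, Cox6a1 and Atp5k the core also reads on the other strand, where the 2 matches overlap.

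The table held 74 promoters of 69 members and 32851 promoters in all, each from 250 bases before to 50 bases after an annotated start. GCGCATGC, the NRF1 core, was present on either strand in 10 of the 74 (13.5%) and in 2.71% of all promoters. AAGATGGCG, a core of the YY1 motif, was in 7 (9.46%) against 1.40% of all, and CCGGAAGT, an ETS core bound by GABP, in 5 (6.76%) against 3.89%. The SP1 motif GGGCGGGG was in 12 (16.2%) against 17.6%, and TCAAGGTCA, the motif of the oestrogen-related receptors, in 2 (2.70%) against 0.423%. Member promoters held a median of 19 CpG dinucleotides per window and all promoters 7, and the NRF1 core itself contains CpG, so these shares are not matched for base composition. A match describes the sequence and is not evidence of binding in these cells.

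No subunit gene passed the test between panobinostat and vehicle. In edgeR's quasi-likelihood test with Benjamini-Hochberg adjustment over the 13207 genes tested, 0 of 80 members had an adjusted p under 0.05, against a background of 0% (0 genes of 13207). At an unadjusted p under 0.05 there were 0 members, against 301 genes or 2.28% of all. DESeq2 and limma-voom also called 0 members, and over all genes DESeq2 called 9 and limma-voom 0. In 0 members did all panobinostat libraries lie below all vehicle libraries, where 3.63% of all genes did, and in 0 members did they all lie above, where 3.79% did. The smallest p of any member in edgeR was 0.130, for Ndufa5, with an adjusted p of 0.998.

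The estimates nevertheless leaned one way: 71 of the 80 members had a lower estimate under panobinostat and 9 a higher one. Their median log2 fold change was -0.13, beside 0.0009 over all genes tested, of which 49.8% had a lower estimate. By complex the medians were -0.14 in complex I (35 of 38 lower), -0.21 in complex II (4 of 4), -0.11 in complex III (8 of 8), -0.13 in complex IV (10 of 13) and -0.11 in complex V (14 of 17). The 9 higher estimates were those of Ndufa1, Ndufs3, Ndufv3, Cox6b2, Cox7a2l, Cox7c, Atp5d, Atp5g2 and Atp5mpl, and the largest of them was 0.12. Without vehicle library 2 the medians of complexes III, IV and V were above 0, at 0.00397, 0.0221 and 0.0341, and those of complexes I and II were -0.00632 and -0.0663. These counts describe genes that were measured in the same 6 libraries and share their deviations, and no test was made over them.

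**Figure D1:**
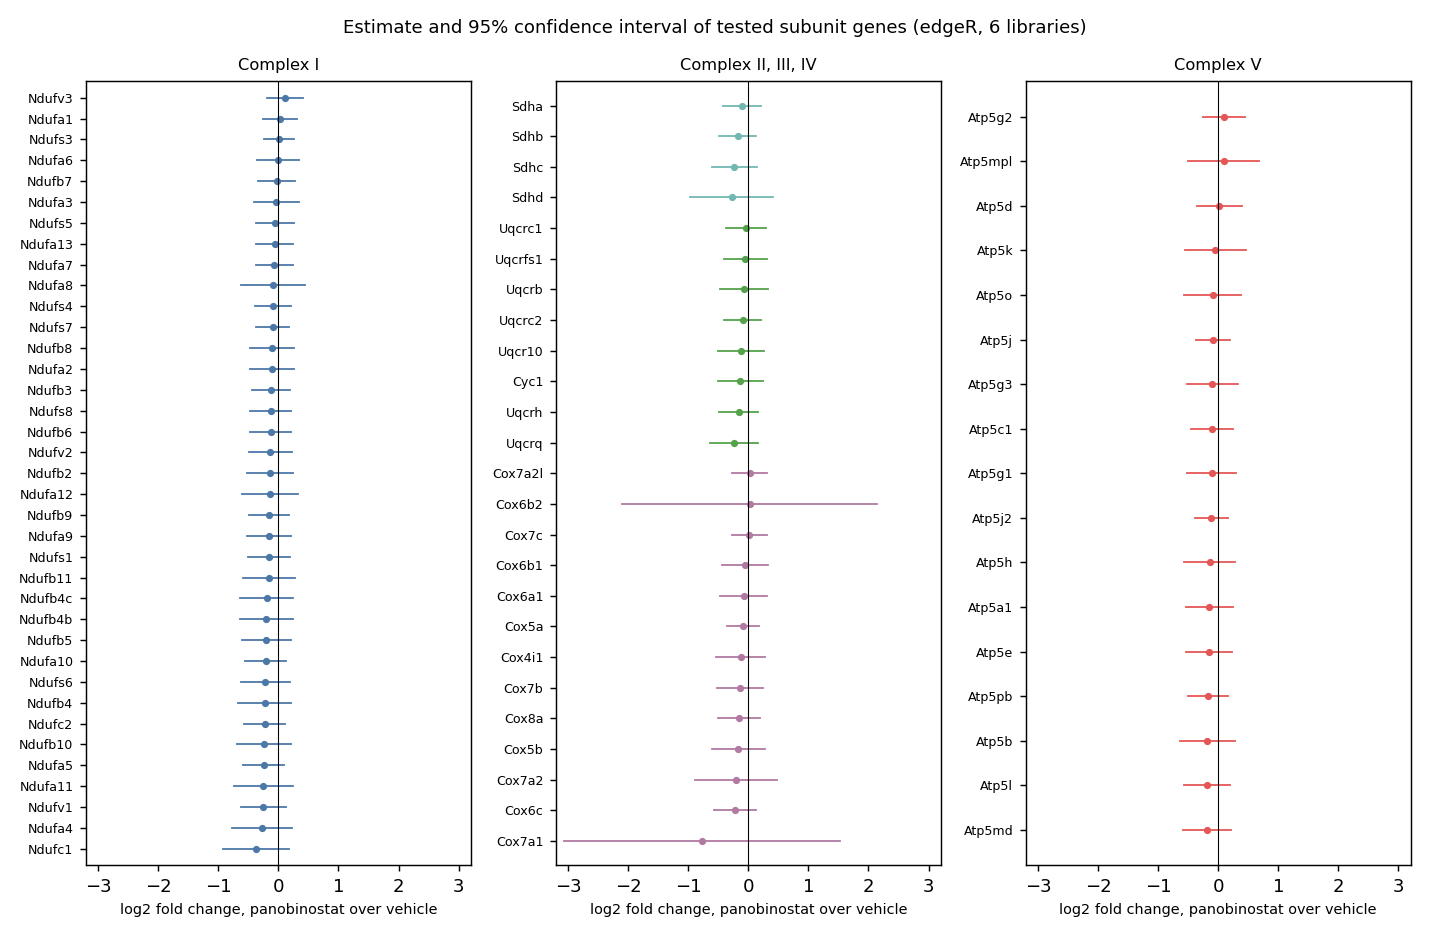
Log2 fold change of panobinostat over vehicle (horizontal axis) for the tested subunit genes reported here, by complex; points are edgeR estimates and lines their 95% confidence intervals from 3 libraries per group. Every interval shown spans 0, most points lie left of it, and Cox6b2 and Cox7a1 have the widest intervals.

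The lean in the estimates came with a wide spread among the vehicle libraries. Summed over the 87 members, the level was 7997, 11469 and 10327 CPM under vehicle (libraries 1 to 3) and 9431, 8909 and 8873 CPM under panobinostat. Vehicle library 1 was the lowest of the 6, vehicle libraries 2 and 3 the highest, and the panobinostat libraries lay between them. The means were 9931 ± 1770 CPM (SD, n = 3) under vehicle and 9071 ± 313 CPM (SD, n = 3) under panobinostat, a ratio of 0.913, while vehicle library 2 was 1.43 times vehicle library 1. Against vehicle libraries 2 and 3 alone the ratio was 0.832, and by complex 0.829, 0.837, 0.862, 0.863 and 0.819 for complexes I to V. Subunit genes took 0.791% of all counts in vehicle library 1 and 1.15% in vehicle library 2, with the panobinostat libraries at 0.879% to 0.945%.

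Most members had this order. Vehicle library 2 was the highest of the 6 libraries in 72 of 80 members (90.0%), where this was so in 22.4% of all genes tested. Vehicle library 1 was the lowest in 63 members (78.75%), against 25.4% of all genes, and 59 members (73.75%) had both, against 10.8%. The coefficient of variation was larger among vehicle than among panobinostat libraries in 74 of 80 members (92.5%), against 65.8% of the 11747 genes with a mean of at least 1 CPM. Its median over members was 18.8% under vehicle and 5.26% under panobinostat, and over those genes 15.2% and 10.4%. With vehicle libraries 2 and 3 alone it was larger under vehicle in 58 of 80 members (72.5%), against 38.4% of those genes, with medians of 11.4% in members and 8.07% in those genes under vehicle.

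**Figure D2:**
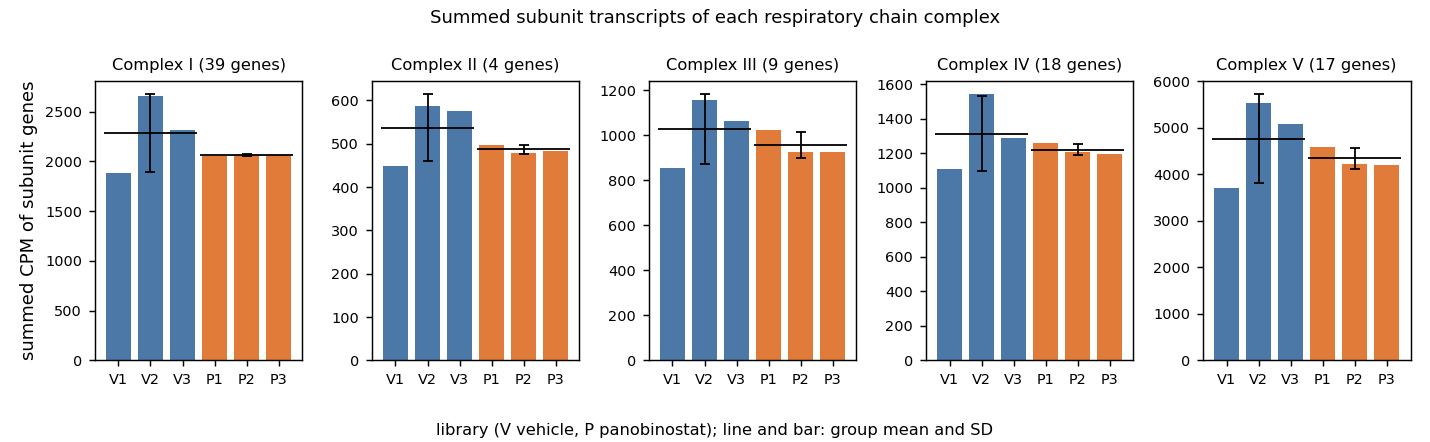
Summed CPM (vertical axis, from 0) of the nuclear subunit genes of each complex in each library; V1 to V3 are the vehicle and P1 to P3 the panobinostat libraries, and lines with bars give the group mean and SD (n = 3). In each complex V1 is the lowest and V2 the highest bar, and the 3 panobinostat bars lie between them.

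Because of that order, the comparison depended on which vehicle libraries were in it. Without vehicle library 1 the median log2 fold change of the members was -0.27 (-0.008 over all genes), 76 of 80 had a lower estimate, and edgeR still called 0 of them, with 0.0656 as the smallest adjusted p. The background in that fit was 0.419% of 13369 genes called lower and 2% called higher. Without vehicle library 2 the median of the members was -0.0009. Without both libraries numbered 1, which left 2 against 2 and was a setting chosen with earlier results of these data known, edgeR called 10 members lower (12.5%) and 1 higher, against 4.65% of 13239 genes called lower and 7.36% called higher. The 10 were Ndufa10, Ndufb5, Ndufc1, Ndufs1, Ndufv1, Sdhc, Cox6c, Cox7a1, Atp5a1 and Atp5b, and the 1 was Cox6b2. The shared number is not known to pair libraries, so these calls depend on which libraries were left out and do not decide a difference. With vehicle library 1 alone left out, none of these 11 passed, and their adjusted p ran from 0.0656 (Ndufv1) to 0.417 (Cox7a1). Without both libraries numbered 1 the median of the members was -0.29 and that of all genes -0.02.

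Complex I, the largest of the chain, was summed at 1882, 2656 and 2317 CPM in vehicle libraries 1 to 3 and at 2051, 2064 and 2068 CPM under panobinostat. The ratio of means was 0.902, with a vehicle SD of 388 CPM (n = 3) while the panobinostat libraries lay within 2051 to 2068 CPM. Its catalytic core is the set of subunits that bind NADH and carry electrons over flavin and iron-sulphur clusters. Of the 7 core genes, 6 had lower estimates, with a median of -0.13.

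Ndufv1, which carries the flavin and binds NADH, was at 96.2, 138 and 135 CPM in the vehicle libraries and at 102, 106 and 103 CPM in the panobinostat libraries. All panobinostat values lay between vehicle library 1 and the other vehicle libraries, and the log2 fold change was -0.25 ± 0.15 (SE), adjusted p 0.998 in edgeR. Without vehicle library 1 it was -0.41 (adjusted p 0.0656 in edgeR), and without both libraries numbered 1 it was -0.40 (adjusted p 0.0269). Ndufs1, the largest iron-sulphur subunit, was at 88.8, 120 and 122 CPM under vehicle and 103, 96.4 and 98.4 CPM under panobinostat. It had the same arrangement, with -0.16 ± 0.14 (SE) in all libraries, -0.30 (adjusted p 0.121) without vehicle library 1 and -0.33 (adjusted p 0.0462) without both numbered 1. Ndufs7, Ndufs8 and Ndufv2, also of the core, had log2 fold changes of -0.10, -0.13 and -0.13. Ndufs3 was the core gene without this order: it was at 55.9, 63.0 and 59.3 CPM under vehicle and 54.2, 61.8 and 63.9 CPM under panobinostat, with a log2 fold change of 0.01.

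The Ndufb and Ndufc genes, most of whose products lie in the membrane arm that pumps protons, all had lower estimates (14 of 14, median -0.18). Ndufc1 had the lowest estimate in complex I: it was at 20.2, 36.6 and 29.8 CPM under vehicle and 24.7, 20.5 and 21.4 CPM under panobinostat, -0.38 ± 0.23 (SE). Vehicle library 1 lay below all panobinostat libraries and vehicle libraries 2 and 3 above them. The log2 fold change was -0.59 (adjusted p 0.0962 in edgeR) without vehicle library 1 and -0.67 (adjusted p 0.0231) without both libraries numbered 1. Ndufb4, Ndufb4b and Ndufb4c had almost the same counts in each library (1124, 1122 and 1137 in panobinostat library 1), so reads of near-identical sequence may have been counted for each, and the 3 are uncertain as separate measurements. The other accessory subunits had lower estimates in 15 of 17 genes, with a median of -0.09. Ndufa5 was at 24.7, 33.9 and 28.0 CPM under vehicle and 23.4, 25.4 and 24.2 CPM under panobinostat, -0.25 ± 0.14 (SE, p 0.130 in edgeR), and here the groups overlapped by 1 library of each.

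Ndufa4, named as a complex I subunit and known also as a component of complex IV, was the complex I gene with the highest level per transcript length, 183 CPM per kilobase. It was at 76.1, 135 and 107 CPM under vehicle and 85.0, 89.0 and 89.3 CPM under panobinostat. Its hypoxia-linked relative Ndufa4l2 had 0 to 2 counts per library and was not tested. Ndufa8 was lowest per length among the complex I genes tested, at 7.81 CPM per kilobase.

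In complex II, which has no mitochondrially encoded subunit, all 4 genes had lower estimates. Sdha, the flavoprotein that oxidises succinate, was at 265, 336 and 351 CPM under vehicle and 311, 289 and 288 CPM under panobinostat, a log2 fold change of -0.10 ± 0.13 (SE). Sdhb, whose promoter stretch is printed above, was at 101, 131 and 114 CPM under vehicle and 92.1, 104 and 110 CPM under panobinostat. It was 1 of the members in which a panobinostat library was the lowest. Sdhc, a membrane anchor that helps bind coenzyme Q, was at 80.2, 118 and 107 CPM under vehicle and 92.4, 83.3 and 83.9 CPM under panobinostat. Its estimate was -0.23 ± 0.16 (SE) in all libraries. It was -0.39 (adjusted p 0.0973 in edgeR) without vehicle library 1 and -0.44 (adjusted p 0.0228) without both numbered 1. Sdhd, the other anchor, was counted at 1.96 to 3.30 CPM, 62 to 115 reads per library, and per length it was the lowest of the complex (1.89 CPM per kilobase against 106 for Sdha). Its level is uncertain, because the sources used here do not say how reads shared with near-identical copies were treated.

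In complex III the 8 tested genes all had lower estimates, from -0.24 to -0.03. Uqcrc1 and Uqcrc2, the core proteins on the matrix side, had log2 fold changes of -0.03 and -0.10. Cyc1, the cytochrome c1 that hands electrons to cytochrome c, was at 127, 186 and 176 CPM under vehicle and at 149, 148 and 148 CPM under panobinostat. The panobinostat libraries differed by 0.56 CPM (SD, n = 3) and the vehicle libraries by 31.6 CPM (SD, n = 3), and the log2 fold change was -0.14 ± 0.15 (SE). Uqcrfs1, the Rieske iron-sulphur protein, was at 80.0, 109 and 104 CPM under vehicle and 105, 89.8 and 89.3 CPM under panobinostat, with an estimate of -0.05. In this gene panobinostat library 1 stood with the 2 higher vehicle libraries, which the complex III sums also showed: 854, 1158 and 1064 CPM under vehicle against 1025, 926 and 923 CPM. Uqcrh and Uqcrq, small accessory subunits, were the highest and the lowest tested complex III genes per length, at 213 and 56.7 CPM per kilobase, with estimates of -0.16 and -0.24. Uqcr11 had 0 or 1 counts per library and was not tested. The annotation and the treatment of multiply aligned reads are not given, so these counts do not show that the gene is silent.

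Complex IV reduces oxygen to water, and several of its nuclear subunits have both a ubiquitous form and forms restricted to certain tissues. Summed, the complex was at 1109, 1542 and 1289 CPM under vehicle and 1259, 1208 and 1198 CPM under panobinostat. Cox4i1, the ubiquitous form of the largest nuclear subunit, was at 157, 239 and 208 CPM under vehicle and 203, 177 and 173 CPM under panobinostat, -0.13 ± 0.17 (SE). Cox5a and Cox5b, nuclear subunits with a single form each, had estimates of -0.09 and -0.16, and Cox8a one of -0.16. Cox6a1 had the highest level per length in the complex, 359 CPM per kilobase, and an estimate of -0.08. Cox6c was at 63.6, 90.3 and 76.7 CPM under vehicle and 70.3, 63.1 and 63.8 CPM under panobinostat, with -0.23 ± 0.15 (SE). Its estimate was -0.36 (adjusted p 0.145 in edgeR) without vehicle library 1 and -0.41 (adjusted p 0.0458) without both numbered 1. Cox7a2l, which takes part in joining complexes III and IV, was at 108, 109 and 99.2 CPM under vehicle and 123, 97.1 and 101 CPM under panobinostat, and did not show the vehicle library order.

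Of the forms known from heart, skeletal muscle, lung or testis, 5 were near the limit of detection. Cox4i2 had 0 to 3 counts per library, Cox6a2 0 to 4 and Cox8b 0 to 2, and Cox7b2 and Cox8c were also not tested. A count of 0 allows up to 3 counts, or 0.0834 to 0.0948 CPM depending on the library, for counting error only.

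Cox6b2 and Cox7a1 were the restricted forms that passed the filter, and they were the only tested members whose highest library was over 2 times the lowest. Cox6b2, best known from testis, was at 23.5, 4.65 and 3.65 CPM under vehicle (libraries 1 to 3) and at 3.86, 9.19 and 19.3 CPM under panobinostat. Vehicle library 1 and panobinostat library 3 were high, vehicle libraries 2 and 3 and panobinostat library 1 low, and the groups overlapped. The log2 fold change was 0.02 with a 95% confidence interval of -2.10 to 2.14 (edgeR, adjusted p 0.999), 1.36 with an adjusted p of 0.326 without vehicle library 1, and 1.77 with an adjusted p of 0.0391 without both libraries numbered 1. With other single libraries left out it ran from -0.71 (panobinostat library 3) to 0.43 (panobinostat library 1). Leaving out both libraries numbered 1 took away the highest vehicle and the lowest panobinostat value of Cox6b2. The adjusted p of that setting therefore cannot decide whether the groups differed. Of the reads of Cox6b1 and Cox6b2 together, Cox6b2 held 19.7% in vehicle library 1 (95% exact Clopper-Pearson interval 18.5% to 21.0%, 745 of 3775 reads). In vehicle libraries 2 and 3 and in panobinostat library 1 it held 3.16% to 3.17%, and in panobinostat libraries 2 and 3 it held 7.56% and 15.5%. Its ubiquitous partner Cox6b1 stayed within 95.7 to 142 CPM, with an estimate of -0.06.

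Cox7a1, the heart and muscle form of subunit 7a, was low and ran the other way. It was at 0.38, 3.56 and 2.23 CPM in vehicle libraries 1 to 3 and 2.53, 0.65 and 0.44 CPM in panobinostat libraries 1 to 3. The libraries high in Cox6b2 were low in Cox7a1, and the reverse, over 6 libraries with no test. The log2 fold change of Cox7a1 was -0.77 (95% confidence interval -3.07 to 1.53) in all libraries, from 12 to 124 reads per library. It was -2.41 (adjusted p 0.0168 in edgeR) without both numbered 1 but -1.27 (adjusted p 0.417) without vehicle library 1 alone, and single left-out libraries moved it from -1.91 (panobinostat library 1) to -0.11 (vehicle library 2). Leaving out both took away the lowest vehicle and the highest panobinostat value of Cox7a1, so that adjusted p cannot decide a difference. The share of Cox7a1 in the reads of Cox7a1 and Cox7a2 was 7.10%, 28.5% and 24.8% under vehicle and 25.8%, 10.4% and 8.20% under panobinostat. Cox7a2 was itself at 4.96 to 8.92 CPM, 9.73 CPM per kilobase against 359 for Cox6a1, and how reads shared with its copies were treated is not stated, so that this share is uncertain.

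**Figure D3:**
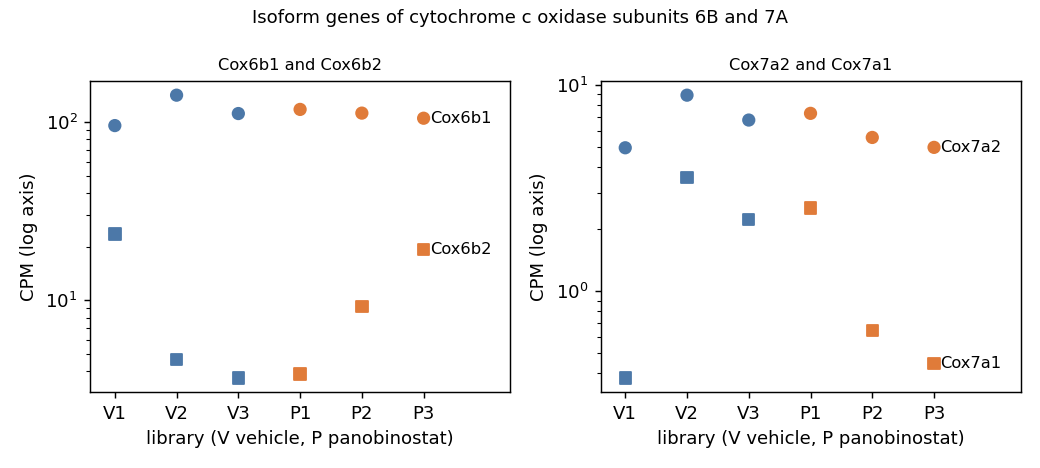
CPM on a log axis of 2 isoform pairs of cytochrome c oxidase in each vehicle (V1 to V3, blue) and panobinostat (P1 to P3, orange) library; circles are the ubiquitous and squares the restricted forms. Cox6b2 is high in V1 and P3 and low in V2, V3 and P1, and Cox7a1 is high in V2, V3 and P1.

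The 150 bases before the annotated start of these genes are given because the restricted and the ubiquitous forms differed in their spread between libraries. Capitals mark CpG dinucleotides, of which there are 12, 7, 11 and 4 in the order given. For Cox7a2 the stretch precedes 1 of its annotated starts.
Cox6b1, chr7:30626115-30626264, - strand: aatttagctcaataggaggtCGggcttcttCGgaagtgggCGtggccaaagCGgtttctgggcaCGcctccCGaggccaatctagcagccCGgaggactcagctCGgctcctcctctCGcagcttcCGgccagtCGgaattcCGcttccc
Cox6b2, chr7:4753095-4753244, - strand: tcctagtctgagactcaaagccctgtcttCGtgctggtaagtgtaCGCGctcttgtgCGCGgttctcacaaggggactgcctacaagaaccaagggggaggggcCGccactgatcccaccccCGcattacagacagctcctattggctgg
Cox7a2, chr9:79759854-79760003, - strand: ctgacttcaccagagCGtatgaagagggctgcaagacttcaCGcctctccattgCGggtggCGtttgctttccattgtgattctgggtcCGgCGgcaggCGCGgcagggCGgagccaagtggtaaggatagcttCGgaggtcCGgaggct
Cox7a1, chr7:30184021-30184170, + strand: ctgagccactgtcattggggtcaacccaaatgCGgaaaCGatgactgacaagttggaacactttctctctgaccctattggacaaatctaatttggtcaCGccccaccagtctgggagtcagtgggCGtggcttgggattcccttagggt
The promoters of Cox6b1 and Cox7a2 thus held more CpG than those of Cox6b2 and Cox7a1 over the same length, and no data here measure methylation or binding at them.

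Complex V genes had the highest level per length of the 5 complexes, with a median of 156 CPM per kilobase of transcript against 124 for complex IV, 110 for complex III, 62.4 for complex II and 56.7 for complex I. The ranges overlapped: complex I ran from 7.81 to 183, complex II from 1.89 to 106, complex III from 56.7 to 213, complex IV from 4.15 to 359 and complex V from 40.9 to 819 CPM per kilobase. The lowest of complex V, Atp5g1, had a transcript length of 2675.5 bases, against 586 for Atp5g2 and 718.5 for Atp5g3. Its level per length depends on that annotated length and is uncertain.

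**Figure D4:**
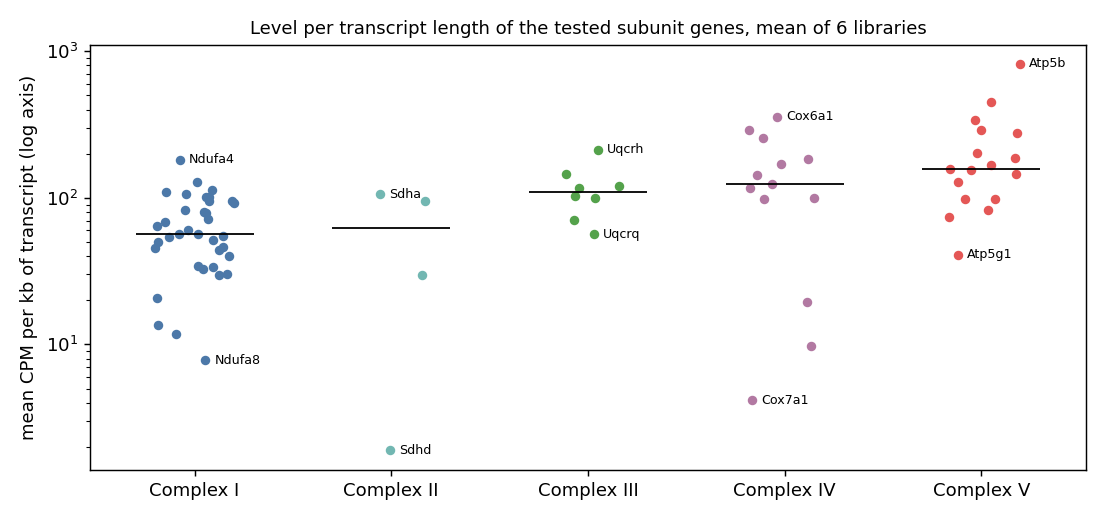
Mean level over the 6 libraries in CPM per kilobase of transcript (log axis) of each tested subunit gene with a transcript length, by complex; lines are medians and the highest and lowest genes are named. Medians run from 56.7 in complex I to 156 in complex V, and Atp5b is highest at 819.

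Atp5a1 and Atp5b, the alpha and beta subunits that form the catalytic head, held 57.9% to 61.6% of complex V reads and 26.8% to 30.3% of all subunit reads in every library. Atp5b was at 1225, 1941 and 1841 CPM under vehicle and 1570, 1417 and 1424 CPM under panobinostat. All panobinostat libraries lay between vehicle library 1 and the others, with a log2 fold change of -0.18 ± 0.19 (SE), 95% confidence interval -0.64 to 0.28. That of Atp5b was -0.37 (adjusted p 0.0968 in edgeR) without vehicle library 1 and -0.42 (adjusted p 0.0236) without both numbered 1. Atp5a1 was at 921, 1307 and 1289 CPM under vehicle and 1104, 1048 and 1026 CPM under panobinostat, with -0.15 ± 0.16 (SE). Its estimate was -0.31 (adjusted p 0.120 in edgeR) without vehicle library 1 and -0.33 (adjusted p 0.0456) without both numbered 1. Atp5c1, the gamma subunit that turns within the head, had an estimate of -0.10.

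The c ring, which rotates as protons pass, is encoded by 3 genes for the same mature protein. Atp5g1 was at 88.2 to 138 CPM, Atp5g2 at 159 to 221 CPM and Atp5g3 at 163 to 259 CPM over the 6 libraries. Atp5g2 was at 159, 221 and 194 CPM under vehicle and 218, 204 and 190 CPM under panobinostat, with a higher estimate of 0.10 ± 0.14 (SE), while those of Atp5g1 and Atp5g3 were -0.11 and -0.10. The ratio of Atp5g2 to Atp5g1 was 1.80, 1.60 and 1.69 under vehicle and 2.14, 1.85 and 1.84 under panobinostat. These ratios did not overlap between groups. They were computed after the values were seen in the same libraries, and no other gene ratios were taken as a background. A two-sided exact permutation test gave p = 0.10, the smallest that 3 against 3 allows, so it cannot decide whether the balance of these genes differed. The ratio of Atp5g2 to Atp5g3, with the same limits, overlapped between groups (exact p = 0.20). The 4 peripheral stalk genes, which hold the head still, all had lower estimates, with a median of -0.12, and Atp5pb, the b subunit, had the smallest p of complex V (0.259, estimate -0.17). Among small subunits, Atp5l and Atp5md had estimates of -0.18 and -0.19.

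The balance between complexes varied less than the level. Of all subunit reads, complex I held 21.7% to 23.5%, complex II 5.12% to 5.61%, complex III 10.1% to 10.9%, complex IV 12.5% to 13.9% and complex V 46.3% to 49.2%, in all 6 libraries. The ranges of vehicle and panobinostat overlapped in every complex. From the lowest to the highest library, vehicle 1 and vehicle 2, the sums of complexes I to V differed 1.41, 1.31, 1.36, 1.39 and 1.49 times.

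Other genes of the mitochondrion were read from lists by function, and edgeR called 0 genes in each of them. Of the tricarboxylic acid cycle and its entry, 16 of 21 tested genes had a lower estimate (median -0.06), and the summed level had vehicle library 1 lowest and vehicle library 2 highest, as the subunits had: 2819, 3659 and 3604 CPM under vehicle and 3343, 3031 and 2969 CPM under panobinostat. Within it, Pdk1, a kinase that inhibits pyruvate dehydrogenase, was at 23.6, 23.2 and 24.4 CPM under vehicle and 65.1, 33.0 and 22.0 CPM under panobinostat, and the related Pdk2 at 25.9, 34.9 and 28.8 CPM and 25.6, 22.0 and 21.2 CPM. All 3 Pdk2 values under panobinostat lay below those under vehicle, which was so in 3.63% of all genes tested. Its estimate was -0.38 ± 0.15 (SE), with an adjusted p of 0.998 in edgeR. Antioxidant genes had lower estimates in 13 of 18 (median -0.05), with -0.22 each for Gpx4, which reduces lipid peroxides, and Gclc, of glutathione synthesis.

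The assembly factors, which build the complexes but are not part of them, did not lean: 25 of 47 had a higher and 22 a lower estimate, with a median of 0.01. Their summed level was 1354 to 1446 CPM under vehicle and 1318 to 1415 CPM under panobinostat. Ndufaf3, for complex I, had -0.35 and Sdhaf1, for complex II, 0.22. The carriers of electrons and nucleotides had 11 higher and 9 lower (median 0.00), with 0.20 for Coq2 of coenzyme Q synthesis and -0.19 for Etfdh. Regulators of mitochondrial gene expression had 12 higher and 9 lower (median 0.03), with 0.30 for Tefm and -0.39 for Tfb1m. Genes of mitochondrial import had 11 higher and 14 lower (median -0.01), with -0.39 for Dnajc19 and -0.25 for Pam16.

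Genes used as markers of other spleen cells also differed between libraries. Erythroid markers (14 tested, 12 with lower estimates) summed to 24419, 14786 and 8753 CPM in the vehicle libraries and 3384, 18575 and 23860 CPM in the panobinostat libraries. Globin genes held most of this, and without the 3 of them the other 11 summed to 2936, 3932 and 3589 CPM and 1524, 3477 and 4060 CPM. Megakaryocyte markers (7 tested of 10, 5 lower) summed to 262, 62.8 and 65.4 CPM and 79.9, 146 and 173 CPM. Among them Itga2b (149, 3.99 and 2.90 CPM and 13.0, 54.5 and 85.9 CPM) and Pf4 varied widely. Gp1ba, at 70.1, 44.0 and 43.3 CPM and 53.0, 51.1 and 48.1 CPM, varied less. For both the erythroid and the megakaryocyte sums the 3 highest libraries (vehicle 1, panobinostat 2 and panobinostat 3) were the 3 lowest in subunit transcripts and the 3 highest in Cox6b2. This was not so for the erythroid markers without globins or for Gp1ba alone. B cell markers (12 tested, 12 lower) summed to 58.5 to 148 CPM under vehicle and 10.5 to 71.0 CPM under panobinostat. T cell markers (12 tested, 11 lower) summed to 31.1 to 141 and 71.98 to 88.9 CPM, most of it from Lat, the gene with the higher estimate, and the other 11 summed to 15.4, 16.7 and 11.1 CPM under vehicle and 2.22, 6.55 and 14.5 CPM under panobinostat. Mast cell and basophil markers (11 tested of 12, 10 higher) summed to 2657 to 2995 CPM under vehicle and to 4979, 2805 and 2907 CPM under panobinostat. They include Kit and Gata2, taken above as leukaemia markers, and without both the others summed to 1592, 1913 and 2080 CPM and 3626, 1824 and 1977 CPM. Granulocyte and monocyte markers (10 tested of 16, 10 lower) summed to 19.8 to 23.5 and 10.2 to 21.4 CPM. No marker of these lists was at 0 in all libraries. In bulk libraries a changed number of cells of a type and a changed amount of RNA per cell cannot be told apart, and the part of other cells in the subunit values was not tested. Whether the sorted leukaemia cells themselves expressed these marker genes was not tested either.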

How the data were processed

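The authors deposited raw read counts per gene as whole numbers for 6 libraries, with Entrez identifiers. The submitters' processing notes name build mm10 and, with no roles, HISAT2 2.1.0, Subread 2.0.0, featureCounts, cutadapt 2.1, limma, FastQC 0.11.6 and bcl2fastq 2.17.1.14, and per the labels' protocols libraries came from a TruSeq kit. The sources used here do not give the strand setting, the annotation or the treatment of multiply aligned reads, so 20 members that overlap another counted gene (among those named Ndufs1, Ndufv2, Uqcrc2, Uqcrq, Cox7a2, Atp5a1, Atp5b and Atp5md) and members with near-identical copies are uncertain. Symbols came from RefSeq GRCm38.p6, the same assembly as mm10 (25275 of 27179 identifiers matched). Genes were kept by filterByExpr (minimum count 10) and tested in edgeR 4.0.16 (R 4.3.3; TMM factors, robust quasi-likelihood F test, two-sided, Benjamini-Hochberg over all genes, threshold 0.05). Standard errors are the size of the estimate over the square root of F. Level per length used the median length of principal coding transcripts, known for 85 members. The script was tested on simulated data.

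Named genes were core and isoform genes fixed by role, the 3 smallest p values and the highest and lowest level per length of each complex, any gene past the threshold, and the 2 smallest p values of each other list. Of the genes this took, 1 is not reported here. The remaining genes with higher estimates, Ndufa11 and Atp5k for their promoters, Ndufb4, Ndufb4b and Ndufb4c for shared reads, and Uqcr11 were chosen after their values were seen. The members and lists were chosen with earlier results of these data known. Counting intervals cover counting error only, since no molecular identifiers are stated. Alternatives were other scalings, filters and tools (limma 3.58.1, DESeq2 1.42.0), the replicate block and left-out libraries.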

Additional observations from a re-analysis of the deposited data

How the results depend on the processing

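The number of subunit genes called was 0 under RLE, upper-quartile or library-size scaling, no filter, a filter on mean CPM, DESeq2, limma-voom, edgeR without its robust setting, and each library left out in turn. It was 11 without both libraries numbered 1. Over all genes 0 were called in edgeR, 9 in DESeq2, 0 to 324 with each library left out in turn (324 without vehicle library 1) and 1590 without both libraries numbered 1. The median of the subunit genes ran from -0.29 without both libraries numbered 1 to -0.0009 without vehicle library 2. With the replicate block 0 subunit genes and 0 genes in all were called. Whether same-numbered libraries are paired is not known. Their deviations from the group means correlated at -0.142, 0.099 and -0.211, and not every library correlated best with its own number. Deviations from a mean of 3 libraries depend on each other, so these correlations cannot decide it.

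Some estimates of the named genes changed sign, and not only those nearest 0. Cox7a2 and Cox5b, for example, were at -0.21 and -0.16 in all 6 libraries. The log2 fold change of Ndufs3 was -0.00234 under library size alone, and Cox7a2l and Atp5g2 were -0.0817 and -0.082 without both libraries numbered 1. With each library left out in turn the log2 fold changes ran as follows: Ndufs3 -0.0388 to 0.0836, Ndufv2 -0.28 to 0.00618, Ndufa8 -0.22 to 0.042, Uqcrc1 -0.16 to 0.0443, Uqcrfs1 -0.19 to 0.0378, Cox4i1 -0.29 to 0.0151, Cox5b -0.35 to 0.0221, Cox6a1 -0.20 to 0.0801, Cox6b1 -0.19 to 0.11, Cox6b2 -0.71 to 1.36, Cox7a2 -0.41 to 0.0223, Cox7a2l -0.0872 to 0.0854, Atp5g1 -0.28 to 0.0536, Atp5g2 -0.0328 to 0.22 and Atp5g3 -0.27 to 0.0648. None of these passed the threshold with 1 library left out, and the cause was not tested.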
